A study of Mus musculus with 4 samples.

Results

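The replacement histone variants described here are 8 genes that encode variant forms of histones H2A and H3. They were chosen by name: H2afz and H2afv (both H2A.Z), H2afx (H2A.X), H2afj (H2A.J), H2afy and H2afy2 (macroH2A), and H3f3a and H3f3b (both H3.3). All 8 had a row among the 20065 genes of the deposited table, and all 8 were among the 16212 genes that reached a mean normalized read count of 5 and were tested. The RNA came from satellite cells, the stem cells of skeletal muscle (MuSC), which were isolated from limb and trunk muscles of adult C57BL/6 mice, cultured and sequenced after depletion of ribosomal RNA. The control libraries carried Pax7CreERT2 and Prmt5+/loxP, and the Prmt5sKO libraries carried Pax7CreERT2 and Prmt5loxP/loxP, each with TAM and 2 libraries per group. By the study's methods, Prmt5 was deleted in culture, where the cells were given 4-OH-TAM before they were analysed. Cre was therefore present and induced in both groups, under the Pax7 locus that is active in satellite cells, and the controls, although labelled wild type, had 1 floxed allele of Prmt5. How many mice or cultures stand behind a library is not stated. The p-values from fits therefore set a group difference against the spread between these libraries, pooled in part over genes, whatever its source. The comparison asks how the transcripts of the variants stood in MuSC that had lost Prmt5, a protein arginine methyltransferase.

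Core histones come in 2 kinds of gene. Replication-dependent genes lie in clusters, are transcribed mainly in S phase to package newly copied DNA, and give messengers that end in a stem-loop in place of a poly(A) tail. Replacement genes are mostly scattered single genes with introns and polyadenylated messengers, are transcribed throughout the cell cycle, and supply histones that are put into chromatin outside replication. Because ribosomal RNA was depleted and no poly(A) selection was made, messengers of both kinds could be sequenced. In skeletal muscle, variant histones such as H3.3 are known to enter the chromatin of muscle genes during differentiation.

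Normalized read counts were scaled by trimmed mean of M-values (TMM), and groups were compared with limma-voom across all genes tested. Libraries are named by their depth, which lay between 13240754 and 20047430 reads assigned to genes, because the deposited columns are group means and name no replicates. Wherever values are given in pairs, the deeper library comes before the shallower one. Prmt5 had 2273 and 2906 normalized read counts in the control and 244 and 202 in the Prmt5sKO libraries. The 7 myogenic markers summed to between 41580 and 72931 in the 4 libraries, against at most 126 for blood, 204 for endothelial, 217 for fibro-adipogenic and 41.8 for Schwann cell markers. Of the blood markers, Ptprc and Adgre1 had no row. The libraries stood apart in other respects. The summed level of 10 proliferation markers was 53764 and 66733 in the control and 27997 and 30627 in the Prmt5sKO libraries, and that of 7 markers of differentiated muscle was 8750 and 5041 in the control but 15164 and 204366 in the Prmt5sKO libraries. Xist, which is transcribed from the inactive X chromosome, had 8668 and 23.3 in the control and 8.15 and 5655 in the Prmt5sKO libraries, so the libraries within a group were not repeats of the same cells. In bulk RNA, fewer cells of a type and less RNA per cell cannot be told apart. The part of proliferation, differentiation and Xist status in the results below was not tested.

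One sequence feature set H2afx apart from the other 7 variants. The histone stem-loop, in which 6 paired bases close a loop of 4, was spelled as 16 bases (GG, 3 of any base, TT, any base, T, any base, A, 3 of any base and CC, with the stem required to pair) and searched on the sense strand of the annotated transcripts (GENCODE M21, GRCm38). It was found in 1 of 8 replacement variants, in 40 of 57 replication-dependent core histone genes (70.2%) and in 28 of 21812 other protein-coding genes (0.128%). Some replication-dependent genes have short annotated transcripts, such as Hist1h2bl with 381 bases and Hist1h4k with 312. A stem-loop past the annotated end could not be found, so a gene without a match may still have one. The stem-loop of H2afx is shown beside that of the most abundant replication-dependent gene of each class, with the 16 matching bases in capitals and 5 flanking bases on each side in lower case.
H2afx: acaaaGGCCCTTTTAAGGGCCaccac
Hist2h2ac: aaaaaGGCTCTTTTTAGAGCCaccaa
Hist1h2be: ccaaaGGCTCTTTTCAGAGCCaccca
Hist1h3c: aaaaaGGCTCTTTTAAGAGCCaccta
Hist1h4d: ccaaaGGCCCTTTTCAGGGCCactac
In H2afx the stem-loop occupied bases 547 to 562 of a single-exon transcript of 1384 bases, 50 bases beyond the coding sequence, and 822 bases followed it. H2afx is known to give both a short messenger that ends at the stem-loop and a long polyadenylated one, and counts per gene do not separate these. A match of letters describes the sequence and does not show that a stem-loop is used.

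The promoters of the H2A.Z pair are shown because these genes encode nearly the same protein from separate places in the genome. RefSeq promoter sequences (GRCm38.p6, 250 bases before to 50 bases after the start) were matched for 7 of the 8 genes, all but H2afx. Capitals mark CCAAT or its reverse complement ATTGG, the letters bound by NF-Y.
H2afz (chr3:137864237-137864536, plus strand): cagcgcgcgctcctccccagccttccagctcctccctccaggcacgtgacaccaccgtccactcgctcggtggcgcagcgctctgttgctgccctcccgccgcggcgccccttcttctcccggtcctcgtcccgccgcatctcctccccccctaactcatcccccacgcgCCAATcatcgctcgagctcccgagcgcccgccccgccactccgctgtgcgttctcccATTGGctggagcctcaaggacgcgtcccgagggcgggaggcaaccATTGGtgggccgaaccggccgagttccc
H2afv (chr11:6444394-6444693, minus strand): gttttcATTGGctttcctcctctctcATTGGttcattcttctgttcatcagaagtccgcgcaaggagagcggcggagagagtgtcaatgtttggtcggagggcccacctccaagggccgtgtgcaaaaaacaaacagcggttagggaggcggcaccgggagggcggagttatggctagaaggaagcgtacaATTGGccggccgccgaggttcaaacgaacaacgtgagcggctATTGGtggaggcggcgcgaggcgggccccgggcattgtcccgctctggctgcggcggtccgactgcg
The H2afz promoter held 3 such matches and the H2afv promoter 4. Among the others, H2afj had 3, H3f3b 4, H2afy2 and H3f3a 1 each, and H2afy 0, while 10248 of 27025 promoters of this length (37.9%) held at least 1. The CHR letters TTTGAA or TTCAAA were present in the H2afv promoter alone among the 7, against 18.1% of all promoters. Of the E2F letters TTTGGCGC, TTTCCCGC, TTTGCCGC and TTTCGCGC, searched on both strands, 0 matches were found in the 7 promoters, against 2.32% of all promoters with a match.

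Over the 8 variants, 4 lay below both controls in each Prmt5sKO library, namely H2afx, H2afy2, H2afz and H2afy, and 0 lay above both. Over all genes tested, 23.6% were lower and 25.2% higher without overlap between the groups. The same 4 genes had an unadjusted p under 0.05 with lower values in Prmt5sKO, against 6.95% of all genes, and 0 variants had one with higher values, against 6.01%. After Benjamini-Hochberg adjustment over all 16212 genes, 0 variants were called at the thresholds used, a fold change of 2 or more with an adjusted p up to 0.05. At these thresholds 0.0% of all genes were called by limma-voom, with 1126 genes lower and 975 higher at an unadjusted p under 0.05, and robust limma-trend called 1 gene, which was no variant. Even the deleted gene Prmt5 was not called by limma-voom, with a log2 fold change of -3.52 and an adjusted p of 0.193. A lack of calls therefore does not show a lack of change. With all 4 libraries and no block, none of the differences between groups given below for the variants passed the test over all genes. The fit with a replicate block under which H2afx did pass is given with that gene. The median log2 fold change of the variants was -0.54, beside 0.02 for all genes tested. The plot of the 8 genes by library gives the values behind these counts.

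**Figure D1:**
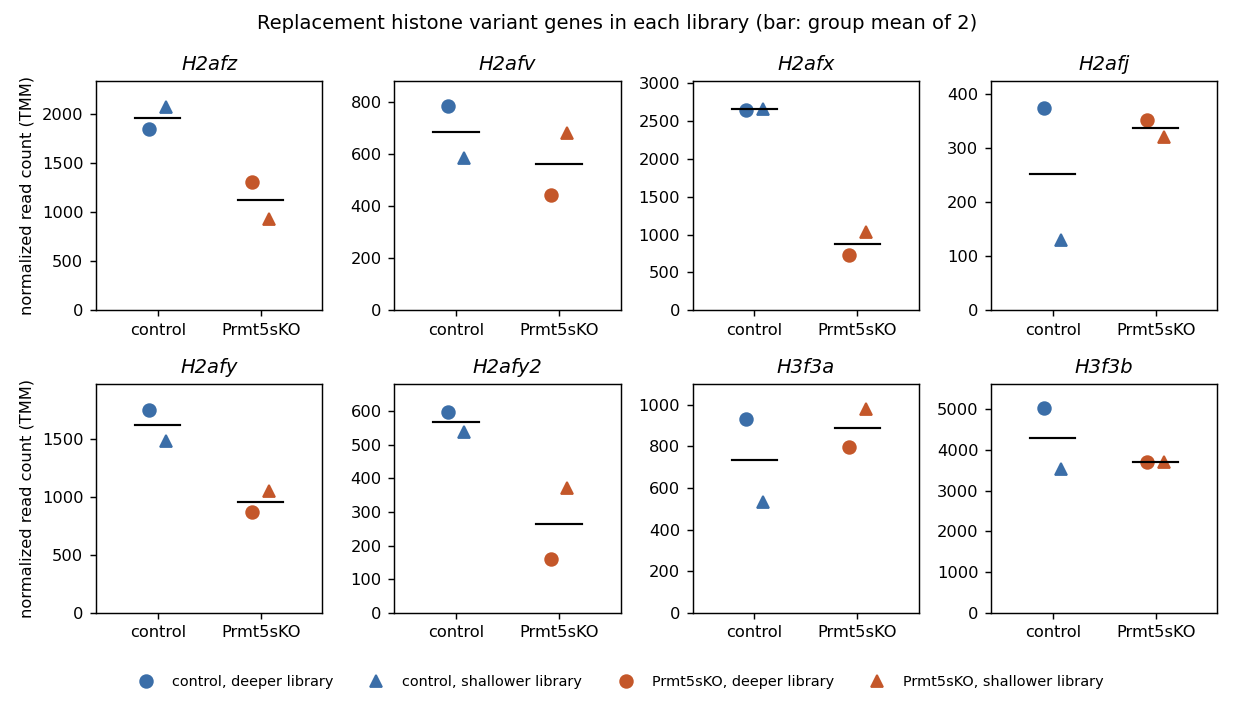
Normalized read count (TMM, linear axes from 0, 1 panel per gene) of the 8 replacement histone variant genes in each library, with blue for control, orange for Prmt5sKO, circles for the deeper and triangles for the shallower library, and bars for the mean of the 2 libraries. H2afz, H2afx, H2afy and H2afy2 lie below both controls in each Prmt5sKO library, while the groups overlap in the other 4 genes.

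H2A.Z replaces H2A around the start sites of many genes, and it is encoded by H2afz (H2A.Z.1) and H2afv (H2A.Z.2). H2afz (ENSMUSG00000037894, chr3:137864487-137866922, plus strand, 5 exons, GRCm38) had 1849.9 and 2067 normalized read counts in the control and 1303 and 934 in the Prmt5sKO libraries. Both Prmt5sKO libraries lay below both controls, with means of 1119 ± 261 against 1959 ± 154 (SD, n = 2 each), or 57.1% of control. The log2 fold change was -0.82 with an SE of 0.24 and a 95% confidence interval from -1.41 to -0.23 (unadjusted p 0.0140, adjusted p 0.295). H2afv (ENSMUSG00000041126, chr11:6427229-6444443, minus strand) had 784 and 584 in the control and 445 and 681 in the Prmt5sKO libraries. Here the groups overlapped, since the shallower Prmt5sKO library lay between the controls, and the log2 fold change was -0.32 with an SE of 0.30 (95% confidence interval from -1.06 to 0.42, adjusted p 0.661).

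Within the H2A.Z pair, level per kilobase of exon allowed H2afz and H2afv to be set against each other. H2afv made up 31.6% and 23.5% of the summed H2A.Z level in the control and 27.1% and 44.2% in the Prmt5sKO libraries. These shares depend on the exon length used, whereas the difference of the log2 ratio between groups does not. The log2 ratio of H2afv to H2afz was 0.53 higher in Prmt5sKO (exact two-sided permutation test over libraries, p = 0.667). With 2 libraries against 2, the smallest p this test can give is 0.333, so it could not pass a threshold of 0.05. Without the shallower Prmt5sKO library the difference was -0.02, so its direction rested on that library. The coding sequences of H2afz and H2afv differed at 80 of 384 bases (79.2% identical). Of the 50-base windows along the H2afz transcript, 69.6% also occurred in transcripts of 6 other genes, 4 of them pseudogenes, whereas 0% of the H2afv windows did. The authors listed reads with several positions among the unassigned reads, so the level of H2afz is uncertain.

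H2A.X is the H2A variant that is phosphorylated around DNA double-strand breaks. H2afx (ENSMUSG00000049932, chr9:44334694-44336077, plus strand, 1 exon), the variant with the stem-loop shown above, had 2651 and 2659 normalized read counts in the control and 728 and 1034 in the Prmt5sKO libraries. The control libraries were nearly equal and both Prmt5sKO libraries lay far below them, with means of 881 ± 216 against 2655 ± 5.26 (SD, n = 2 each), or 33.2% of control. The log2 fold change was -1.62 with an SE of 0.24 and a 95% confidence interval from -2.21 to -1.03 (unadjusted p 0.000496, adjusted p 0.203). This was the lowest value of the 8 variants, and 3.50% of all genes tested had a lower one. The difference was -1.87 without the shallower Prmt5sKO library, the one with the high differentiation markers, and -1.36 without the deeper one. Without the deeper or the shallower control library it was -1.63 or -1.61. Whether H2afx was called depended on which library was left out, and such a fit leaves a lone library in 1 group. In a fit with a replicate block that crossed the depths, which pairs libraries of like Xist level, the log2 fold change was -1.62 with an adjusted p of 0.0208, and H2afx was then the only variant among the 2.13% of genes called, beside 24 of 41 replication-dependent core histone genes. With the deeper libraries of both groups paired instead, its adjusted p was 0.247. The replicate numbers are not on the columns, so neither pairing is given by the design.

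H2A.J is a mammalian H2A variant that differs from canonical H2A mainly at its C-terminal end. H2afj (ENSMUSG00000060032, chr6:136808244-136810074, plus strand) had 374 and 131 normalized read counts in the control and 352 and 322 in the Prmt5sKO libraries. Only the shallower control library was low, with the Prmt5sKO libraries between the controls. That library held 101 reads of H2afj, with an exact Poisson 95% interval from 82.3 to 123, and the deeper one 331, with an interval from 296 to 369, which cover counting error only. The gap between the control libraries was 1.51 on the log2 scale, which 2.97% of 10305 genes with a mean of at least 100 reached or exceeded. The log2 fold change was 0.57 with an SE of 0.48 (95% confidence interval from -0.59 to 1.73, adjusted p 0.623), and it was -0.14 without the shallower control library and 1.35 without the deeper one.

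MacroH2A carries a large macro domain behind its histone part and is known for its place in the inactive X chromosome and in silent chromatin. H2afy (macroH2A1, ENSMUSG00000015937, chr13:56073619-56136361, minus strand, 9 exons) had 1749 and 1482 normalized read counts in the control and 865 and 1047 in the Prmt5sKO libraries. The groups did not overlap, with means of 956 ± 129 against 1616 ± 189 (SD, n = 2 each), or 59.2% of control. The log2 fold change was -0.76 with an SE of 0.22 and a 95% confidence interval from -1.30 to -0.23 (unadjusted p 0.0131, adjusted p 0.294). H2afy2 (macroH2A2, ENSMUSG00000020086, chr10:61738665-61784147, minus strand, 9 exons) had 598 and 537 in the control and 159 and 371 in the Prmt5sKO libraries. Both Prmt5sKO libraries were below the controls but far from each other, by 1.22 on the log2 scale, a gap that 7.09% of genes reached or exceeded. The log2 fold change was -1.28 with an SE of 0.41 and a 95% confidence interval from -2.28 to -0.28 (unadjusted p 0.0200, adjusted p 0.319), and -0.61 without the deeper Prmt5sKO library. H2afy2 overlaps Aifm2 on the opposite strand, and whether the counting used strand is not given in the sources used here, so its reads cannot be told apart from those of that gene where they overlap. H2afx, H2afj and H2afy each overlap 1 predicted gene on the opposite strand that had no row.

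H3.3 differs from the replication-dependent H3 proteins at a few residues and is deposited by HIRA and by DAXX with ATRX, and its genes H3f3a and H3f3b encode the same protein. H3f3b (ENSMUSG00000016559, chr11:116021912-116027962, minus strand) had 5040.1 and 3530.1 normalized read counts in the control and 3716 and 3701 in the Prmt5sKO libraries. The Prmt5sKO libraries were nearly equal and lay between the controls. The log2 fold change was -0.19 with an SE of 0.24 (95% confidence interval from -0.78 to 0.41, adjusted p 0.755). H3f3a (ENSMUSG00000060743, chr1:180800832-180813943, minus strand) had 935 and 532 in the control and 796 and 979.5 in the Prmt5sKO libraries. The shallower control library was the lowest and the groups overlapped, with a log2 fold change of 0.31 and an SE of 0.32 (95% confidence interval from -0.47 to 1.08, adjusted p 0.688). Without the deeper control library H3f3b had 0.06, and without the shallower one H3f3a had -0.08, so neither direction held.

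H3f3b was the main source of H3.3 transcripts in all 4 libraries, with 86.4% and 88.7% of the summed H3.3 level per kilobase of exon in the control and 84.6% and 81.6% in the Prmt5sKO libraries. The log2 ratio of H3f3b to H3f3a was 0.51 lower in Prmt5sKO, at 2.31 ± 0.22 against 2.82 ± 0.21 (SD, n = 2 each, exact two-sided permutation p = 0.333, the smallest possible). The coding sequences of the pair differed at 95 of 408 bases (76.7% identical), although the protein is the same. Of the 50-base windows of H3f3a, 30.3% occurred in 41 other genes, 38 of them pseudogenes, against 8.40% for H3f3b in 3 other genes. H3f3a also overlaps H3f3aos and Gm17275 on the opposite strand, so its level is the less certain of the pair.

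Per kilobase of exon, the order of the mean control levels was H2afx (1918), H3f3b (1440), H2afz (1103), H2afv (419), H2afy2 (261), H2afy (237), H3f3a (209) and H2afj (138). The control libraries of H3f3b, at 1694 and 1186, reached down to H2afz, at 1042 and 1164, without overlap, whereas H2afy2, H2afy and H3f3a overlapped one another, and H3f3a overlapped H2afj. In Prmt5sKO the order was H3f3b (1246), H2afx (637), H2afz (630), H2afv (345), H3f3a (253), H2afj (184), H2afy (140) and H2afy2 (122). Here H2afx overlapped with H2afz. On the same merged-exon scale the Prmt5sKO libraries of H2afv and H3f3a overlapped as well, and those of H2afy2, at 73.2 and 171, enclosed those of H2afy. Windows shared with other genes made up 69.6% of the H2afz and 30.3% of the H3f3a transcript. The values were 15.4% for H2afy2, 9.66% for H2afx, 8.76% for H2afy, 8.40% for H3f3b, 7.18% for H2afj and 0% for H2afv. Reads with several positions were listed as unassigned, so the places of H2afz and H3f3a in these orders are uncertain. Their places with such reads counted were not tested. The order also depended on the transcript model. Per kilobase of the longest coding transcript, H2afx (1918), H2afz (1832) and H3f3b (1704) led in the control, where the libraries of H3f3b, at 2005 and 1404, enclosed those of the other two, and H2afy stood at 789.8. In Prmt5sKO on that scale, H3f3b (1475), H2afz (1047) and H2afx (637) led without overlap. H2afx thus stood below H3f3b in both Prmt5sKO libraries on either scale, whereas in the control it stood above H3f3b in both libraries only on the merged-exon scale.

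The replication-dependent core histones served as the class beside which the variants were set. Hist1h2aa, Hist1h2ba, Hist3h2a and Hist3h2ba were left out of this class by name. Of 57 annotated genes 43 had a row and 41 were tested, and the median log2 fold change of the 41 was -1.61. It was below 0 in 40 of them, against 7872 of all 16212 genes tested. Of the 41, 34 had an unadjusted p under 0.05 with lower values in Prmt5sKO, against 6.95% of all genes. Without overlap 36 were lower, against 23.6% of all genes, and 0 were called, against 0.0% of all genes. With the crossed replicate block 24 of the 41 were called, against 2.13% of all genes. The most abundant genes per class were Hist2h2ac with a log2 fold change of -2.45, Hist1h2be with -1.59, Hist1h3c with -1.47 and Hist1h4d with -1.82, where adjusted p lay between 0.198 and 0.231. Only Hist2h2be was higher in both Prmt5sKO libraries, with 0.88, and it is named after its value was seen. H2afx, at -1.62, lay near the median of this class, as 19 of the 41 genes had a lower log2 fold change. The other 7 variants lay above that median but within the class range of -3.97 to 0.88, where only 1 gene exceeded the highest variant. H2afy2, H2afz and H2afy, at -1.28, -0.82 and -0.76, also lay within the range of the 29 genes with stem-loop letters, -2.73 to -0.48. H2afv, H3f3b, H3f3a and H2afj lay above that range. Among the other 7, only H2afy2 had a 95% confidence interval that included the class median, from -2.28 to -0.28. Among replication-dependent genes the median was -1.61 for the 29 with stem-loop letters and -1.60 for the 12 without. Since a match may be missing only because the annotated transcript is short, these medians cannot show whether a stem-loop goes with the change. Windows shared with other genes made up a median of 60.4% of a replication-dependent transcript, against 9.21% for the variants, so the levels of that class are less certain.

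**Figure D2:**
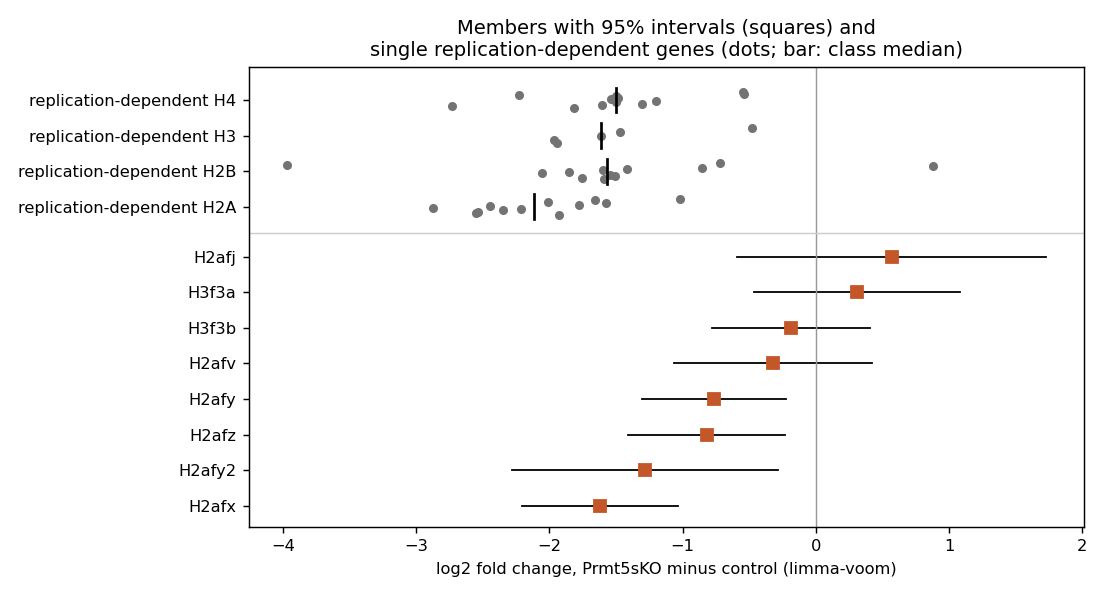
Log2 fold change (Prmt5sKO minus control, limma-voom) of the 8 replacement variants as squares with 95% confidence intervals, and of the 41 replication-dependent core histone genes as dots, with a bar at the median of each class. H2afx, at -1.62, lies near the class medians between -2.11 and -1.50, while the intervals of H2afv, H3f3b, H3f3a and H2afj include 0.

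Set against replication-dependent histones, the variants made up a larger share of the summed level in both Prmt5sKO libraries than in either control. On the scale of summed level per kilobase of exon, the replacement H2A variants made up 16.9% and 10.8% of the H2A genes with a row in the control and 28.4% and 26.5% in the Prmt5sKO libraries. H3f3a and H3f3b together made up 21.7% and 13.7% of the H3 genes with a row in the control and 38.5% and 39.0% in the Prmt5sKO libraries. The replication-dependent genes with a row were 12 of 16 for H2A and 5 of 12 for H3, so these are shares of the rows used and not of all H2A or H3 transcripts. The log2 ratio of replacement to replication-dependent level was 1.27 higher in Prmt5sKO for H2A, 1.59 higher for H3 and 1.01 higher for all 8 variants against the 43 core histone genes with a row, each with p = 0.333 in an exact two-sided permutation test over libraries, the smallest possible. Both terms of these ratios were read from the same libraries, and the summed replication-dependent read count was 56175 and 72835 in the control and 20159 and 19644 in the Prmt5sKO libraries, while that of the 8 variants was 13981 and 11521 against 8363 and 9069. Proliferation markers were lower as well, 8 of 10 at an unadjusted p under 0.05 (list median -1.04), against 6.95% of all genes tested. Their part in the shares was not tested.

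**Figure D3:**
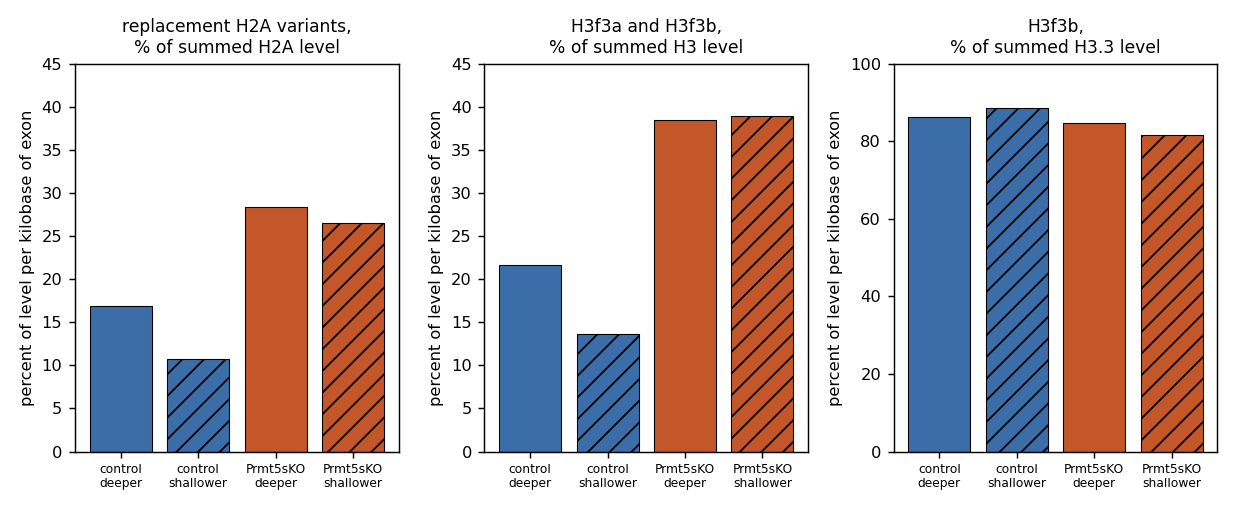
Share of the H2A, H3 or H3.3 genes with a row in each library, in percent of summed level per kilobase of exon (bars from 0, blue for control, orange for Prmt5sKO, hatched for the shallower library): replacement H2A variants of H2A, H3f3a with H3f3b of H3, and H3f3b of H3.3. The first 2 shares are higher in both Prmt5sKO libraries, at most 16.9% and 21.7% in control and at least 26.5% and 38.5% in Prmt5sKO, and H3f3b stays between 81.6% and 88.7%.

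The factors that place the variants in chromatin were described from lists of their genes, and none was called. At an unadjusted p under 0.05, the threshold for all counts in this paragraph, 6.95% of all genes tested were lower and 6.01% higher. Of 12 genes of the H2A.Z exchange machinery, 4 were lower and 0 higher, with a median log2 fold change of -0.27. The 4 were Srcap, the ATPase that inserts H2A.Z, with -0.91, Anp32e, the chaperone that removes it, with -0.83, Ruvbl2, an ATPase shared by these complexes, with -0.60, and Ep400, a second inserting ATPase that is named after its value was seen, with -0.74. Of 7 H3.3 chaperone genes 1 was lower, Hira with -1.17 (unadjusted p 0.00664, adjusted p 0.262), and the list median was -0.23. Of 5 genes for chaperones that act with replication-dependent H3, 4 were lower, with a median of -1.23. These were Chaf1b and Chaf1a, subunits of the assembly factor CAF-1, with -1.91 and -1.83, Nasp, which holds soluble H3, with -1.23, and Asf1b, an H3-H4 chaperone that is named after its value was seen, with -0.96.

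Among 7 genes that act with H2A.X at DNA breaks, 3 were lower and 1 higher at an unadjusted p under 0.05, and the median was -0.37. Atm, a kinase that phosphorylates H2A.X, had a log2 fold change of -0.996, Mdc1, which binds the phosphorylated form, had -0.81, and Rnf168, a ubiquitin ligase, had -0.61. Trp53bp1, a reader of the marked chromatin that is named after its value was seen, had 0.52. Both subunits of the histone chaperone FACT were lower, Supt16 with -0.75 and Ssrp1 with -0.56. Of 5 other histone genes, Cenpa, the centromeric H3 variant, had -0.80 and Hist3h2ba had -2.25 on 6 to 63 reads, both at an unadjusted p under 0.05. Hist3h2a, which is named after its value was seen, had 0.46 on 10 to 39 reads, with overlap between the groups. Over all genes tested, 6.95% were lower and 6.01% higher at that threshold.

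The genes whose profile over the 4 libraries was most like that of a variant were sought among 10305 genes with a mean of at least 100, by Euclidean distance between log2 values centred on their own mean. For H2afx these were Taf15 at a distance of 0.138, the replication-dependent Hist1h2an at 0.145 and Syne2 at 0.163. For H2afy2 they were the linker histone gene Hist1h1e at 0.120, Ccne1, which encodes cyclin E1, at 0.134, and Hnrnpab at 0.134. H2afz was nearest to Itpr3, Smad6 and Exosc7, and H2afv to Slc12a7, Urod and Polr2i. The nearest genes to H2afy were Rnf26, Cers4 and Llgl1, and those to H2afj were Reep2, Gm23444 and Zfp943. H3f3a was nearest to Cetn2, Trappc2l and Dnajc15, and H3f3b to Zyx, Pdlim7 and Itga3. No variant was among the 3 nearest genes of another, the closest pair being H2afv and H3f3b at 0.457. With 4 libraries, such likeness is a description of these libraries.

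**Figure D4:**
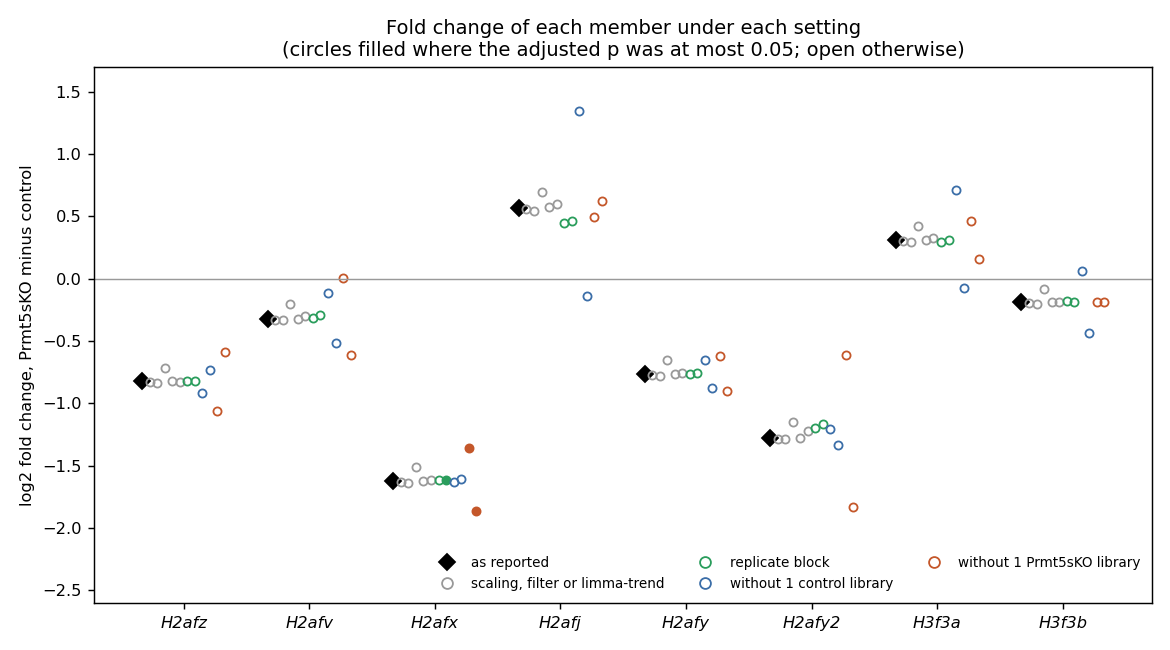
Log2 fold change (Prmt5sKO minus control) of each variant as reported (diamonds) and under other scalings, filters and tests (grey circles), with a replicate block (green), without 1 control library (blue) and without 1 Prmt5sKO library (orange), with circles filled where the adjusted p was at most 0.05. H2afx lies between -1.87 and -1.36 throughout, while H2afj, H3f3a, H3f3b and H2afv each cross 0 once.

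Across the 11 alternatives, the direction held for H2afx, H2afz (between -1.06 and -0.58), H2afy (between -0.90 and -0.62) and H2afy2 (between -1.83 and -0.61). It turned for H2afj, H3f3a, H3f3b and H2afv when 1 library was left out.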

How the data were processed

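RNA-seq of 2 control and 2 Prmt5sKO libraries of cultured MuSC was analysed. The authors trimmed the Ion Torrent Proton reads with Reaper, aligned them to GRCm38 with STAR 2.4.0a, counted them per gene and ran DESeq2 1.62. The table holds, as deposited signal values, the authors' group means of size-factor-normalized counts for 20065 genes. The deposited log2 fold changes with their standard errors and the deposited p-values are the authors' own comparison and were not used. Each group mean adds whole numbers of 2 step sizes, 1 per library, and from the step sizes came whole read counts per library for 100% of genes in both groups (largest relative residual 5.9e-15).

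Recovered counts were scaled by TMM (own code, trims of 30% and 5%) and compared with limma-voom (limma 3.58.1, R 4.3.3) among genes with a mean of 5 or more, calling those with a fold change of 2 or more and an adjusted p up to 0.05. In all, 12 genome-wide fits were made, and the code was tested on simulated data. Single ratios were compared by exact permutation over libraries. Symbols and positions came from GENCODE M21, which held 19782 of the 20065 gene identifiers deposited. Levels between genes are normalized counts per kilobase of merged exons.

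The members and lists were chosen with earlier results of these data known. Named are the 8 variants, up to 3 genes per related list with an unadjusted p of at most 0.05, the most abundant replication-dependent gene per class, checks, and the 3 genes most like each variant. Alternatives were other scalings, no filter, robust limma-trend, each library left out, both pairings of libraries as a replicate block, and levels without division by length or per longest coding transcript.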

Additional observations from a re-analysis of the deposited data

How the results depend on the processing

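Replicate numbers are not on the columns, so both pairings were fitted as a replicate block. Over 10305 genes, the gap between the 2 libraries of a group correlated across groups at -0.36 with deeper paired with deeper. Crossing the pairs only turns the sign, to 0.36, so this is 1 value, and with 2 pairs it does not show that libraries were paired. The crossed replicate block called 346 genes and 1 variant, H2afx (log2 fold change -1.62, adjusted p 0.0208), and the pairing of deeper libraries changed no call. Robust limma-trend called 1 gene. Leaving out 1 library in turn, where a lone library is assumed to vary like the others, gave 0 to 489 genes called (489 without the deeper and 55 without the shallower Prmt5sKO library) and 0 to 1 variants. Without 1 library, the log2 fold change lay between -1.87 and -1.36 for H2afx, -0.61 and 0.0019 for H2afv, -0.14 and 1.35 for H2afj, -0.078 and 0.71 for H3f3a, and -0.44 and 0.058 for H3f3b. Variants lower at an unadjusted p under 0.05, a count added after the data were seen, numbered 2 to 4 (2 without the deeper control library). The log2 ratio of H2afv to H2afz lay between -0.020 and 1.07. The cause of these shifts was not tested. Of single values under alternatives, 110 kept their direction and crossed no threshold, and 5 turned. Another 3, all H2afx, passed the threshold, under the crossed block or with a lone Prmt5sKO library. Part of the 110 could not change or had no threshold to cross. The log2 ratios were the same under a replicate block, exon length cancels in a ratio of single genes, and the class medians had no p. Of counts of calls, 25 stayed within 1.5 times, 7 were larger and 1 was smaller. Scaling by library size moved the median of all genes from 0.02 to 0.13. The SE of a variant lay between 0.22 and 0.48 on the log2 scale, which limits what 2 libraries per group can show.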
